A study of Mus musculus with 18 samples.

Results

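Hepatic stellate cells (HSC), the retinoid-storing pericytes of the liver sinusoid, were compared after 7 days of mono-culture on plastic with HSC taken at day 0, directly after isolation. The comparison used 6 of the 18 libraries of the series, 3 of HSC at day 7 on plastic and 3 of HSC at day 0, chosen by their labels, and every gene of the deposited count table. HSC came from healthy wild-type mice, per the series design text, and the labels carry no further allele, strain, age or sex. The treatment label is MCP for the plastic cultures and "non" for day 0, and neither is explained. Cultures received a mixture of serum-containing DMEM and an organoid-type medium with B27, N2, N-acetylcysteine, gastrin, nicotinamide and the growth factors EGF, FGF10, HGF and RSPO3. Day 0 cells were not cultured, so plastic, time in culture and medium cannot be told apart here. The 3 libraries of HSC after 7 days alone in Matrigel, a soft basement membrane gel, and the 3 libraries of cholangiocyte organoids alone in Matrigel are used only to describe in which HSC cultures a gene was still present.

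In healthy liver the stellate cell lies between hepatocytes and sinusoidal endothelium and stores vitamin A as retinyl esters in lipid droplets. After injury, or on a stiff surface, it becomes a myofibroblast-like cell with smooth muscle actin fibres that lays down collagen and inhibits matrix breakdown. Preparations of fresh liver cells can carry hepatocytes, sinusoidal endothelial cells, Kupffer cells (the resident macrophages of liver) and blood cells, so a transcript that is lower after culture can come from such cells or from stellate cells. In bulk RNA, fewer cells of a type and less RNA per cell cannot be told apart.

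Total counts ranged from 15430066 to 22158674 in the 6 libraries, with 19517 to 21392 genes at 1 count or more. Levels below are CPM, read counts scaled to library size, and changes are fitted log2 fold changes of plastic over day 0 ± SE from edgeR's quasi-likelihood test, with p-values adjusted by the Benjamini-Hochberg method over the 14984 genes tested. On the log2 scale, libraries of the same group correlated at 0.977 to 0.983 across genes, and libraries of different groups at 0.646 to 0.67. Genes are not independent replicates, so these correlations are descriptions. With 3 libraries a group, an exact permutation test of a summed share cannot go below p = 0.1.

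Among the 14984 genes tested, 5112 (34.1%) were higher and 5388 (36%) were lower on plastic than at day 0. A second test asked for a change of more than 2-fold, and 2059 genes (13.7%) were higher and 2783 (18.6%) lower by that rule. The median log2 fold change of all genes tested was -0.06. Each count of list members below is to be read against these shares. Genes higher by more than 2-fold made up 35.5% of the counts on plastic and 7.01% at day 0 (means of 3 libraries). Genes lower by more than 2-fold made up 7.14% on plastic and 46.1% at day 0.

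Plastic replicate 3 stood apart from the other plastic libraries in several gene lists. It was the highest plastic library in 21 of 30 macrophage genes and 6 of 7 mesothelial genes tested, against 32.8% of all genes tested. It was the lowest in 23 of 30 stellate identity genes, 20 of 22 immediate early genes and 13 of 13 mitochondrially encoded genes, against 33.2% of all genes tested. In the mitochondrially encoded genes day 0 replicate 3 was likewise the lowest of its group in 13 of 13. C1qa, a complement component made by macrophages, had 0, 0.588 and 24.4 CPM in plastic replicates 1 to 3, against 56.2, 50.5 and 62.4 CPM at day 0. Plastic replicate 3 alone came near the day 0 range, and the groups did not overlap. Cygb, the haem protein cytoglobin that marks stellate cells, had 167, 103 and 10.8 CPM on plastic and 552, 521 and 496.5 CPM at day 0, so replicate 3 was the farthest from day 0. Its change was -2.50 ± 1.00 (adjusted p = 0.0862) with all libraries and -1.995 (adjusted p = 3.95e-06) without replicate 3. Whether a different cell makeup of that library moved these genes was not tested. Among the 644 list genes tested, leaving out plastic replicate 3 ended 10 calls and added 24, and it turned no called gene round.

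**Figure D1:**
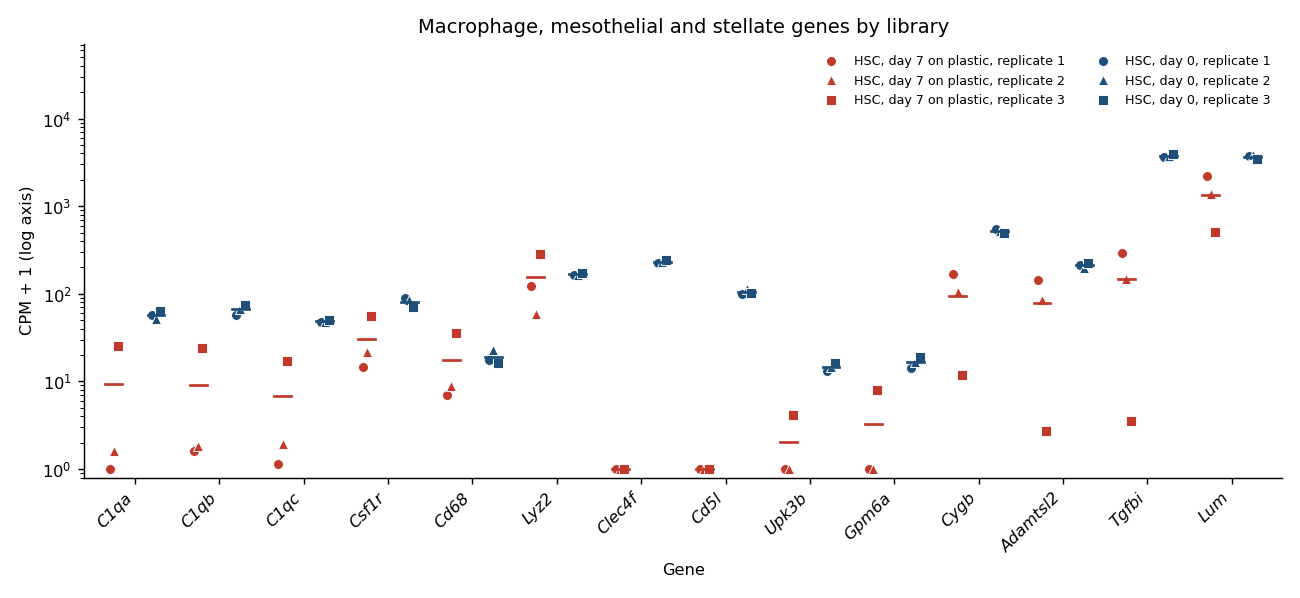
Levels (CPM + 1, log axis) of macrophage, mesothelial and stellate genes in each library, plastic left of day 0, with the symbol showing the replicate. Plastic replicate 3 lies above the other plastic libraries for C1qa (24.4 CPM) and below them for Cygb (10.8 CPM).

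Hepatocyte transcripts were nearly absent from the plastic libraries. All 36 hepatocyte genes of the list passed the filter, and all 36 were lower on plastic by more than 2-fold, with a median log2 fold change of -12.22, or -12.00 with genes at 0 on plastic set to their bound. Together they made up 0.0042% of counts on plastic and 2.54% at day 0 (exact permutation test, two-sided p = 0.1, the smallest possible; groups did not overlap). Alb, which encodes serum albumin, had 0, 3.23 and 0 CPM on plastic and 8402, 8163 and 8601 CPM at day 0. Cps1, the entry enzyme of the urea cycle, had 0 counts in all 3 plastic libraries and 519, 559 and 539 CPM at day 0, which makes it at least 9240-fold lower against a floor of 3 counts over the plastic group. F2, which encodes prothrombin, was at least 8558-fold lower. These genes are high in hepatocytes, and no plastic library reached 1 CPM for 29 of the 36.

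The rest of the 8 largest decreases picked by the naming rule, which left out Mup family members and clone names, were of the same kind. Vtn (vitronectin), Slc27a2 (a fatty acid transporter), Mug1 (a protease inhibitor of plasma), Cyp3a41a and Ugt2b5 (drug-metabolising enzymes) and Pigr (the carrier of secretory antibodies) had 0 counts in every plastic library, with bounds of at least 5393-fold to at least 6459-fold. Values of single Cyp3a and Ugt2b genes are uncertain, since near-identical family members may share reads. Fah, the last enzyme of tyrosine breakdown, was the exception in the list. It had 30.5, 38.9 and 40.5 CPM on plastic and 129, 116 and 134 CPM at day 0, a change of -1.80 ± 0.12 (adjusted p = 7.21e-09). The list without Fah fell to 0.000748% of counts on plastic, against 2.53% at day 0.

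Endothelial transcripts were also lower, though few reached 0. All 26 endothelial genes tested, of 27, were lower by more than 2-fold, with a median of -4.20, and the list took 0.0458% of counts on plastic and 0.581% at day 0 (exact p = 0.1, groups did not overlap). Dnase1l3, a secreted nuclease of sinusoidal endothelium, had 0.41, 0.343 and 0.244 CPM on plastic and 622, 598 and 612 CPM at day 0 (-10.84 ± 0.15, adjusted p = 1.24e-14). Stab2, the hyaluronan scavenger receptor of the same cells, had 3.69, 3.96 and 2.99 CPM on plastic and 156.5, 155 and 146 CPM at day 0 (-5.43 ± 0.13, adjusted p = 2.31e-13). Clec4g, a sinusoidal lectin, changed by -6.35 ± 0.19 (adjusted p = 8.29e-11). In these 3 genes the groups did not overlap, which the naming rule required of Dnase1l3.

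Plvap, usually known as an endothelial diaphragm protein, held most of the endothelial sum and had a different pattern. It had 436, 276 and 128 CPM on plastic, 4761, 4445 and 4254 CPM at day 0, and 1747, 1977 and 2848 CPM in Matrigel (plastic over day 0 -4.02 ± 0.54, adjusted p = 0.00236). Dnase1l3, Stab2 and Clec4g were each at 1.21 CPM or less in every Matrigel library. Plvap, Fcgr2b (an inhibitory antibody receptor) and Esam (a junction protein) were the 3 endothelial members seen in Matrigel, which here means at least 10 CPM in all 3 HSC Matrigel libraries with an organoid mean under 5% of the Matrigel mean. These 3 made up 0.0365% of counts on plastic and 0.39% at day 0. The other 24 made up 0.00929% and 0.191% of counts, plastic first.

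Macrophage genes did not move as a group. Of 30 tested, 12 were lower and 2 higher, 8 of the lower ones by more than 2-fold, and the median was -1.42. Without plastic replicate 3, 26 were lower, 21 of them by more than 2-fold, 1 was higher, and the median was -2.40; without day 0 replicate 1 or 2 the higher count was also 1. Clec4f, a lectin receptor found on Kupffer cells, had 0 counts in all plastic libraries and 221, 231 and 239.5 CPM at day 0, at least 3953-fold lower. Cd5l, a secreted protein of tissue macrophages, was also at 0 on plastic and at least 1779-fold lower. Marco and Timd4, a scavenger receptor and a phosphatidylserine receptor, were at 0 too and at least 46.7-fold and at least 96.6-fold lower.

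General macrophage genes remained measurable on plastic, most of all in replicate 3. Lyz2, which encodes lysozyme, had 122, 58.1 and 281 CPM on plastic, 164, 163 and 170.5 CPM at day 0 and 1879, 1939 and 2711 CPM in Matrigel, and the plastic and day 0 libraries overlapped (-0.13 ± 0.63, adjusted p = 0.87). Csf1r, the receptor for the macrophage growth factor CSF1, had 13.7, 20.6 and 54.4 CPM on plastic and 87.4, 83.3 and 70.4 CPM at day 0. Its change of -1.46 ± 0.58 did not pass (adjusted p = 0.0824), and without plastic replicate 3 it was -2.25 (adjusted p = 8.19e-08). C1qa gave -2.79 ± 1.51 (adjusted p = 0.171) with all libraries and -7.37 (adjusted p = 1.06e-09) without replicate 3. The 26 members other than Clec4f, Cd5l, Marco and Timd4 summed to 0.0255%, 0.0195% and 0.0806% of counts in the plastic libraries and to 0.0653%, 0.0661% and 0.0701% at day 0. For those 26 members plastic replicate 3 lay above every day 0 library, whereas for all 30 it lay below them, at 0.0806%, against 0.0911%, 0.0941% and 0.0981% at day 0.

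Other blood and liver cell types contributed little at either time. The dendritic cell and granulocyte list had 5 of 14 genes tested, all lower by more than 2-fold, and its share was 0.00061% on plastic and 0.018% at day 0. Cd74, the invariant chain of class II antigen presentation, had 0.205, 0 and 0.733 CPM on plastic and 117, 113 and 107 CPM at day 0 (-8.56 ± 0.39, adjusted p = 1.53e-07). The list's median was -8.56 with all libraries, -6.21 to -6.54 without any 1 plastic library and -6.46 without day 0 replicate 3. H2-Aa, a class II chain, changed by -8.88 ± 0.38 (adjusted p = 9.41e-11). Of 8 erythroid and platelet genes tested, 7 were lower, 6 by more than 2-fold, and haemoglobin Hba-a2 was at 0 on plastic and at least 250-fold lower. Only 3 of 14 lymphocyte genes could be tested, and 2 were lower. That small count depended on the libraries used, since 6 were lower without plastic replicate 1 and 5 without plastic replicate 2 or 3, where more members passed the filter.

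Biliary, mesothelial and portal fibroblast lists held small shares of counts in both groups. Of 15 cholangiocyte genes 6 could be tested, of which 4 were lower and 1 higher, and the list held 0.000765% of counts on plastic and 0.00167% at day 0. Of 7 mesothelial genes 2 were lower, and 5 without plastic replicate 3. Msln, the mesothelial surface protein mesothelin, had 0.479, 1.86 and 1.89 CPM on plastic and 11.7, 12.9 and 13.4 CPM at day 0 (-3.15 ± 0.37, adjusted p = 4.49e-06). Of 9 portal fibroblast genes 7 were lower and 1 higher, while their summed share was higher on plastic, at 0.0187%, against 0.0119% at day 0 (groups did not overlap). The member that rose was Fbln2, the elastic fibre protein fibulin, with 185, 174 and 180 CPM on plastic and 6.57, 6.47 and 7.54 CPM at day 0 (4.69 ± 0.11, adjusted p = 2.31e-13), and it made up most of that share on plastic, while Gas1, a growth arrest protein, fell by 3.52 ± 0.14 (adjusted p = 5.06e-11). Thy1, a surface marker of portal fibroblasts, stayed under 1.06 CPM in all 6 libraries and was not tested.

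**Figure D2:**
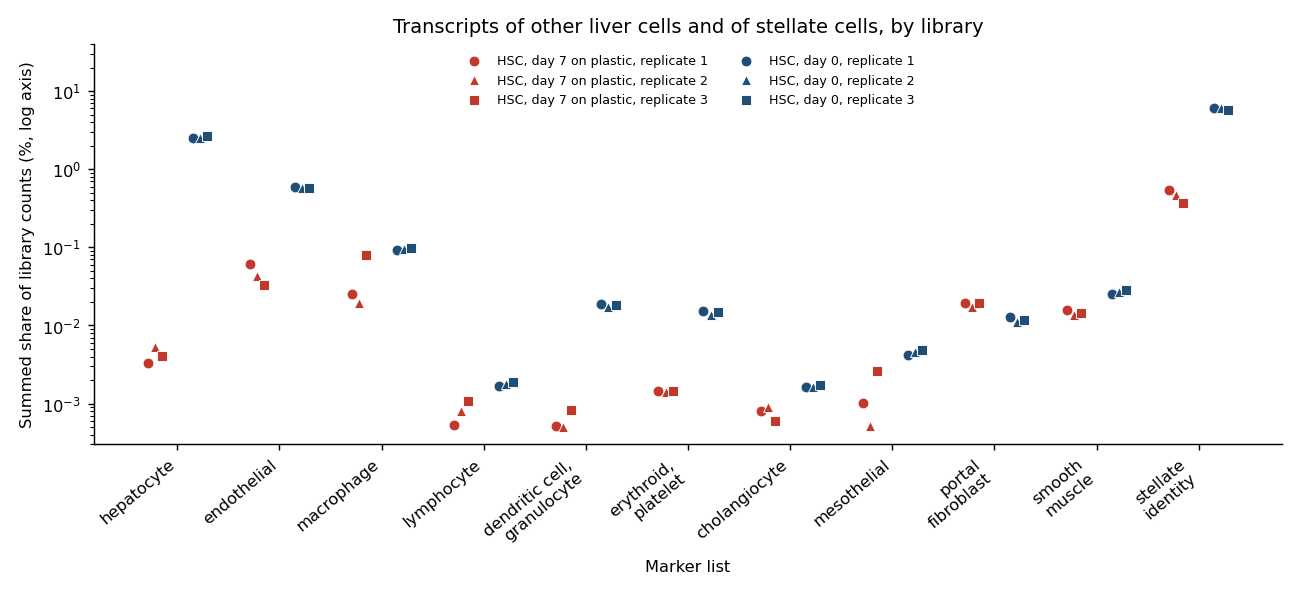
Summed percent of library counts (log axis) for each list of other cell types and for the stellate identity list, 1 symbol per library, plastic left of day 0. The hepatocyte list lies near 0.0042% on plastic and 2.54% at day 0, and the macrophage list of plastic replicate 3 comes close to day 0.

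To place the lost transcripts, the 2783 genes lower by more than 2-fold were sorted by the level that remained on plastic. A first class of 1150 genes was under 1 CPM in every plastic library and held 0.0178% of counts on plastic and 4.9% at day 0. A second class of 669 genes kept at least 10 CPM in every plastic library and held 6.75% of counts on plastic and 33.3% at day 0. The 964 genes between held 0.374% and 7.86%, plastic first. Most of the lost count share thus lay in genes that the plastic libraries still contained. A level of at least 10 CPM does not assign a gene to stellate cells, since 5 endothelial members and 1 hepatocyte member were in that class. The 170 members of the 10 lists of other cell types, hepatocyte genes included, summed to 0.13% on plastic and 3.3% at day 0. These lists hold chosen markers only, so the sums are not the whole share of those cells.

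The lower genes were further marked by their presence in the Matrigel HSC cultures. Of the 2783 genes lower by more than 2-fold, 257 were seen in Matrigel, and these held 2.23% of counts on plastic and 17.5% at day 0. Of those 257, 132 kept at least 10 CPM in all plastic libraries and 9 were under 1 CPM in all. In the hepatocyte list 1 of 36 genes was seen in Matrigel, in the endothelial list 3 of 27, in the macrophage list 16 of 30 and in the stellate identity list 26 of 30. Presence in Matrigel does not by itself name a stellate gene, since macrophage genes such as Lyz2 were present there as well. Nor does a gene not seen by this rule count as absent, since the rule left out genes also expressed in organoids. B2m was left out in this way, with means of 4249 CPM in Matrigel and 685 CPM in organoids. The share seen in Matrigel among all genes tested was not computed, so 257 of 2783 is not read as high or low.

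Stellate identity genes fell on plastic but did not vanish. Of 30 tested, 25 were lower, 22 by more than 2-fold, and 2 were higher, with a median of -3.96. Their sum was 0.456% ± 0.088 of counts on plastic and 5.93% ± 0.228 at day 0 (SD, n = 3 each; exact p = 0.1, groups did not overlap). None of the 30 was under 1 CPM in all plastic libraries, and 19 kept at least 10 CPM in all 3. Without plastic replicate 3, 27 were lower and the median was -3.56, and without day 0 replicate 2, 1 was higher.

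Reln, which encodes the secreted glycoprotein reelin, had 144, 114 and 62.7 CPM on plastic, 2477, 2636 and 2287 CPM at day 0 and 1391, 2302 and 2291 CPM in Matrigel. Every plastic library was far below every day 0 library, while the Matrigel libraries lay close to day 0 (plastic over day 0 -4.55 ± 0.35, adjusted p = 0.000107). Lrat, the enzyme that forms retinyl esters, had 419, 227 and 141 CPM on plastic, 2112, 2294 and 2071 CPM at day 0 and 358, 525 and 619 CPM in Matrigel (-3.06 ± 0.47, adjusted p = 0.00369). Ecm1, a secreted matrix protein, was among the 6 genes with the largest share of day 0 counts. It had 989.5, 759 and 775 CPM on plastic and 27980, 25320 and 22750 CPM at day 0 (-4.93 ± 0.14, adjusted p = 1.33e-12). Rgs5, a pericyte regulator of G protein signalling, had 154, 77.5 and 27.2 CPM on plastic and 6693, 6958 and 6222 CPM at day 0 (-6.29 ± 0.82, adjusted p = 0.00241).

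Among genes seen in Matrigel, the largest decreases on plastic picked by the naming rule included secreted lectins and signalling receptors. Colec11 and Colec10, collectins of the complement system, had at most 5.74 and 16.6 CPM in any plastic library. Colec11 reached 3204, 3143 and 3255 CPM at day 0 and 356, 505 and 644.5 CPM in Matrigel, a plastic change of -9.65 ± 0.84 (adjusted p = 0.000526). Fcna, a ficolin lectin, had 19.8, 21.1 and 14 CPM on plastic, 3973, 3900 and 3962 CPM at day 0 and 340, 486.5 and 607 CPM in Matrigel (-7.77 ± 0.17, adjusted p = 3.08e-13). Inmt, a methyltransferase, had 0.479, 0.93 and 0.427 CPM on plastic and 323, 323 and 349 CPM at day 0, and its Matrigel libraries, at 149, 335 and 273.5 CPM, overlapped day 0. Vipr1, a receptor for vasoactive intestinal peptide, changed by -8.47 ± 0.66 (adjusted p = 0.000316), Adamts13, the protease of von Willebrand factor, by -8.16 ± 0.51 (adjusted p = 7.57e-05), and Ggt5, a glutathione-cleaving enzyme, by -7.94 ± 0.16 (adjusted p = 9.11e-14). Angptl6, Fam180a and Hpgd, the last of which inactivates prostaglandins, were the remaining genes of the 10 named, with changes of -8.84, -8.50 and -8.22.

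**Figure D3:**
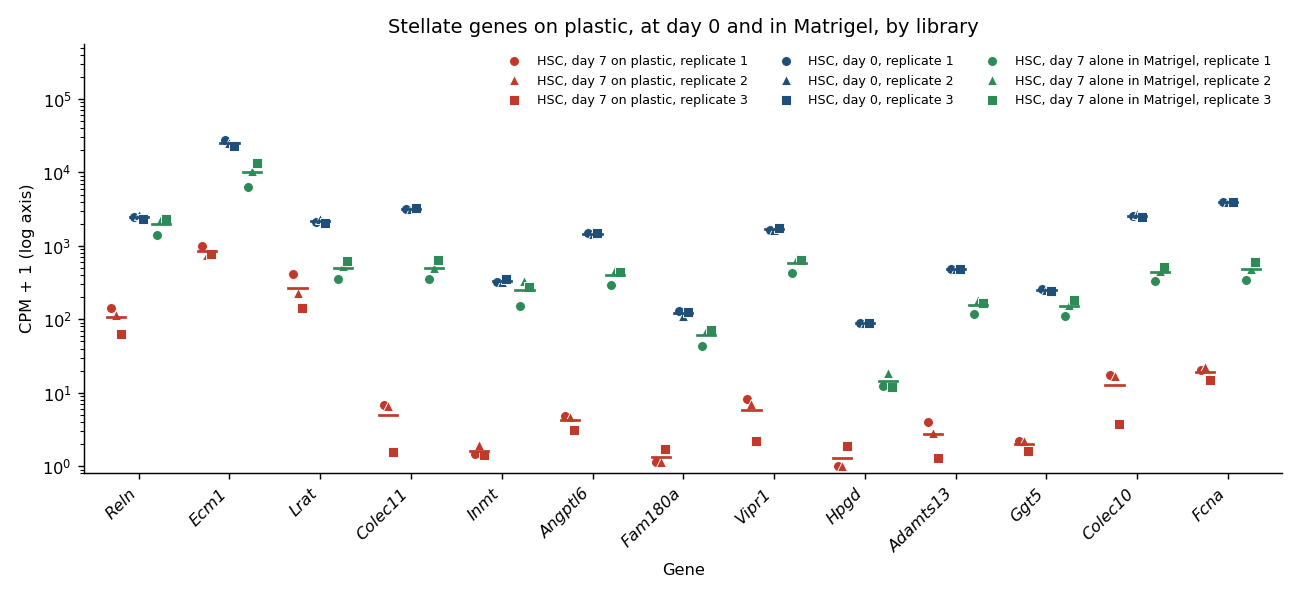
Levels (CPM + 1, log axis) of Reln, Ecm1, Lrat and the 10 decreases that the naming rule picked among genes seen in Matrigel, with plastic, day 0 and Matrigel libraries side by side. Reln is at 62.7 to 144 CPM on plastic, 2287 to 2636 CPM at day 0 and 1391 to 2302 CPM in Matrigel.

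Some stellate markers were near their day 0 level. Des, which encodes the intermediate filament desmin, had 265, 346 and 363 CPM on plastic and 244.5, 233 and 263 CPM at day 0, a small rise of 0.38 ± 0.11 (adjusted p = 0.00909). The Des call did not hold without day 0 replicate 2 (adjusted p = 0.0532) or in a fit of all 12 HSC libraries (adjusted p = 0.104). Pdgfrb, the receptor for platelet-derived growth factor on pericytes, had 328, 336 and 338 CPM on plastic and 468, 486 and 494 CPM at day 0 (-0.55 ± 0.08, adjusted p = 2.96e-05). Its partner Pdgfra was not near its day 0 level and was lower by more than 2-fold (-1.64 ± 0.13, adjusted p = 2.03e-07). Nes, the intermediate filament nestin, rose by 0.70 ± 0.10 (adjusted p = 4.12e-05). Bmp10 had 128, 156 and 145 CPM on plastic and 133, 136 and 119 CPM at day 0 (0.13 ± 0.10, adjusted p = 0.247), and the libraries overlapped.

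Retinoid and lipid storage genes moved in both directions. Of 19 tested, 7 were higher and 11 lower, 3 in each direction by more than 2-fold, with a median of -0.53. Plin5, a lipid droplet coat protein, had 0, 0.049 and 0 CPM on plastic and 17.3, 17.5 and 22 CPM at day 0 (-9.45 ± 0.46, adjusted p = 3.82e-10). Dgat2, which makes triglyceride, fell by 4.28 ± 0.13 (adjusted p = 2.23e-12), and Plin2, the main droplet coat protein of stellate cells, by 0.68 ± 0.10 (adjusted p = 2.33e-05). Plin5 and Dgat2 were also low in Matrigel, with means of 0.209 and 8.39 CPM, against 18.9 and 152 CPM at day 0. Whether loss of other cells, such as hepatocytes, moved Plin5 and Dgat2 was not tested. Cyp26b1, which breaks down retinoic acid, had 51.5, 60.3 and 62.3 CPM on plastic and 10.4, 10.9 and 8.01 CPM at day 0 (2.55 ± 0.15, adjusted p = 3.51e-09). Rarb, a retinoic acid receptor, rose by 1.56 ± 0.10 (adjusted p = 7.58e-09). The count of lower genes was 7 without day 0 replicate 3, and that of genes lower by more than 2-fold was 5 without plastic replicate 1 or 3.

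Of 15 genes in the list of stellate transcription factors 12 were lower, 9 by more than 2-fold, and 2 higher (median -1.43). Not all are confined to stellate cells, since Irf1 had a mean of 114 CPM in organoids alone. Of the 9, 2 were seen in Matrigel by the rule above. Lhx2, a factor of quiescent stellate cells, had 12, 16.7 and 12.4 CPM on plastic and 37.7, 34.4 and 37.9 CPM at day 0 (-1.43 ± 0.16, adjusted p = 2.02e-06), and Tcf21, a factor of stellate cells and fibroblasts, fell by 1.80 ± 0.10 (adjusted p = 1.82e-09). Hand2, another mesenchymal factor, had 34.2, 33.7 and 37.3 CPM on plastic and 28.4, 20.3 and 23.9 CPM at day 0 (0.52 ± 0.14, adjusted p = 0.00562), a call that a fit of all 12 HSC libraries did not make (adjusted p = 0.0657). Irf1, an interferon-induced factor, fell furthest of those named, to 38.1, 40.7 and 26.1 CPM on plastic, against 1642, 1663 and 1682 CPM at day 0 (-5.58 ± 0.16, adjusted p = 2.06e-11). Among 17 factors linked to activation 10 were higher, 8 by more than 2-fold, and 3 lower. Fosl1, an AP-1 subunit, had 12.9, 12.6 and 21.3 CPM on plastic and at most 0.377 CPM at day 0 (5.89 ± 0.39, adjusted p = 1.08e-08), and Runx1 and Prrx1 rose by 3.33 ± 0.29 (adjusted p = 1.73e-07) and 3.14 ± 0.26 (adjusted p = 1.13e-07).

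The contractile apparatus rose almost as a whole. Of 24 contractile genes tested, 23 were higher, 19 by more than 2-fold, and none was lower, with a median of 2.44. Their sum was 4.66%, 5.65% and 4.45% of counts in the plastic libraries and 1.05%, 1.01% and 1.03% at day 0, and the share was 2.46% against 0.368% without Actb, the largest member. Acta2, the smooth muscle actin used to mark activated stellate cells, had 4092, 5389 and 4083 CPM on plastic and 8.08, 3.79 and 5.82 CPM at day 0 (9.57 ± 0.33, adjusted p = 1.18e-07). Cnn1, the actin-binding protein calponin, had 165, 186 and 194 CPM on plastic and 0.0755, 0.654 and 0 CPM at day 0 (9.43 ± 0.36, adjusted p = 5e-08). Tagln, another actin-binding protein of smooth muscle, had 1160, 1825 and 1064 CPM on plastic and 88.2, 83.6 and 95.7 CPM at day 0 (3.90 ± 0.22, adjusted p = 1.34e-06). In these 3 genes every plastic library was above every day 0 library.

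Smooth muscle genes proper were few, and 4 of 6 could be tested. Actg2 (gamma smooth muscle actin), Lmod1 (an actin nucleator) and Myh11 (smooth muscle myosin) were higher by more than 2-fold, with 50.4, 39.5 and 52.8 CPM of Actg2 on plastic and 0, 0.654 and 1.12 CPM at day 0 (6.24 ± 0.46, adjusted p = 4.56e-06). Myh11 had 24.1, 21.2 and 24 CPM on plastic and 5.96, 5.69 and 6.48 CPM at day 0, far below Acta2 on plastic in counts not corrected for length. The remaining member, Mustn1, a small muscle and skeletal protein, fell by 3.04 ± 0.39 (adjusted p = 0.00153) and held most of the list's day 0 counts, so the summed share was lower on plastic with it (0.0146% and 0.0268%, plastic first) and higher without it (0.0108% and 0.000624%).

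Serum response factor, which drives many contractile genes in smooth muscle, binds the CArG box, 2 C, then 6 A or T, then 2 G. To show the letters at contractile promoters, the 250 bases before each annotated start were searched on both strands in the RefSeq promoter table of build GRCm38.p6. A CArG box was found for 5 of 22 contractile genes with a promoter in the table (22.7%), namely Cnn2, Fhl2, Myl6, Myl9 and Vcl, against 1.62% of 27025 genes in the table and 1.35% of 11176 genes tested. A match of letters is a description and not a bound site. The lines below give 4 of them, read along the strand of the gene with the box in capitals. They lie at chr10:79988534-79988563 on the plus strand for Cnn2 (calponin of non-muscle cells), chr2:156775293-156775322 on the plus strand for Myl9 (a myosin light chain), chr14:20929161-20929190 on the plus strand for Vcl (vinculin) and chr10:128493040-128493069 on the minus strand for Myl6 (a myosin light chain).
Cnn2: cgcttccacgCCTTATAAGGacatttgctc
Myl9: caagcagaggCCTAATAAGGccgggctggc
Vcl: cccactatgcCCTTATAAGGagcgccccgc
Myl6: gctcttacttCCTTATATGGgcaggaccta

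The genes with those boxes differed in size of change. Myl9 had 1746, 1888 and 1570 CPM on plastic and 146, 144 and 152 CPM at day 0 (3.54 ± 0.10, adjusted p = 1.45e-12). Fhl2, a LIM domain co-factor, changed by 6.72 ± 0.23 (adjusted p = 1.1e-10), Cnn2 by 2.81 ± 0.10 (adjusted p = 1.36e-11), Myl6 by 2.44 ± 0.10 (adjusted p = 5.36e-11) and Vcl by 0.40 ± 0.08 (adjusted p = 0.00055). Acta2 and Cnn1 had no such letters in the 250 bases searched, from which nothing follows about the factor.

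**Figure D4:**
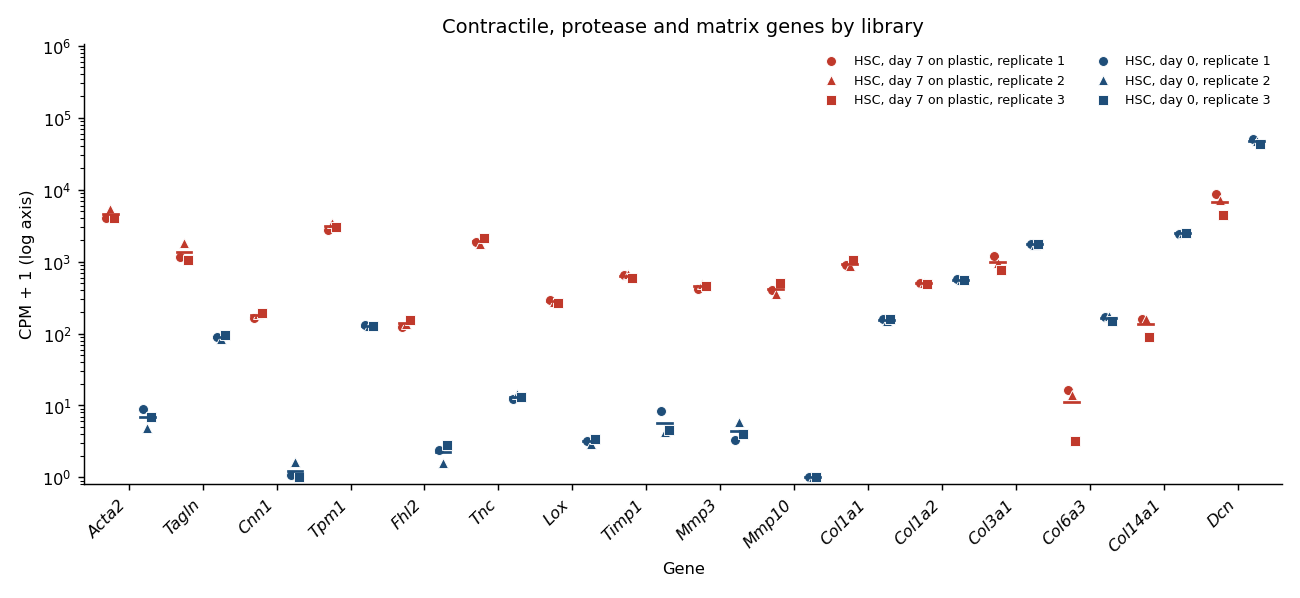
Levels (CPM + 1, log axis) of contractile, protease and matrix genes in each library, plastic left of day 0, with lines at the group means. Acta2 separates the groups from 4083 to 5389 CPM on plastic and from 3.79 to 8.08 CPM at day 0, Col1a2 lies close in both, and Dcn is lower on plastic.

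Adhesion receptors shifted in composition. Of 20 integrin and adhesion genes 11 were higher and 5 lower (median 0.46), 6 and 2 by more than 2-fold, and 3 were lower without day 0 replicate 1. Itga5, the fibronectin receptor chain, had 381, 359 and 438 CPM on plastic and 35, 34.8 and 47.8 CPM at day 0 (3.31 ± 0.14, adjusted p = 2.44e-10). Cd44, the hyaluronan receptor, rose by 3.52 ± 0.11 (adjusted p = 4.91e-12). Itga8, a nephronectin receptor chain, fell to 44.2, 36.3 and 26.3 CPM on plastic, against 402, 420.5 and 420 CPM at day 0 (-3.56 ± 0.16, adjusted p = 7.57e-09). Npnt, which encodes nephronectin, rose to 20.6, 32.6 and 38.8 CPM on plastic, against at most 0.151 CPM at day 0 (9.14 ± 0.52, adjusted p = 8.74e-09).

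Fibrillar matrix genes divided almost evenly. Of 34 tested, 14 were higher, 13 of them by more than 2-fold, and 15 lower, 10 by more than 2-fold, with a median of -0.12. Col1a1, the alpha-1 chain of type I collagen, had 892, 874.5 and 1046 CPM on plastic and 156, 147 and 159.5 CPM at day 0 (2.59 ± 0.10, adjusted p = 2.65e-11). Its partner chain Col1a2 had 498.5, 511 and 493 CPM on plastic and 565, 552 and 550 CPM at day 0, and its change of -0.17 ± 0.08 did not pass (adjusted p = 0.0736). It did pass as lower without plastic replicate 2 (adjusted p = 0.0299), with DESeq2 (adjusted p = 0.0202) and under 2 other settings. Col3a1, the type III collagen chain, had 1185, 964 and 774 CPM on plastic and 1759, 1705 and 1754 CPM at day 0 (-0.85 ± 0.13, adjusted p = 7.24e-05). The chain that rose and the chains that did not were thus all well above the detection limit in both groups.

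The matrix genes with the largest changes had other roles. Tnc, the wound matrix protein tenascin, had 1893, 1741 and 2128 CPM on plastic and 11.2, 13.5 and 12.2 CPM at day 0 (7.26 ± 0.13, adjusted p = 3.61e-14). Lox, the collagen cross-linking enzyme lysyl oxidase, had 295, 277 and 269 CPM on plastic and 2.19, 1.9 and 2.45 CPM at day 0 (6.99 ± 0.13, adjusted p = 3.24e-14). Col5a2, a chain that seeds collagen fibrils, rose by 3.97 ± 0.10 (adjusted p = 3.33e-13). Dcn, the proteoglycan decorin, had the largest share of day 0 counts, with 8800, 7167 and 4516 CPM on plastic and 51410, 47540 and 43650 CPM at day 0 (-2.82 ± 0.24, adjusted p = 2.35e-05). Col14a1, a fibril-associated collagen, fell by 4.21 ± 0.23 (adjusted p = 9.08e-07). Lum, the proteoglycan lumican, had 2186, 1373 and 501 CPM on plastic and 3767, 3805 and 3478 CPM at day 0; it did not pass (adjusted p = 0.0849) unless plastic replicate 3 was left out (-1.09, adjusted p = 0.000115).

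Basement membrane genes split as well, with 6 of 15 higher and 6 lower. Their median was -0.12 with all libraries, -0.34, -0.29 and -0.25 without plastic replicate 1, 2 and 3, and -0.25 without day 0 replicate 3. Nid2, which links laminin to collagen, had 1332, 1352 and 1535 CPM on plastic and 115, 114 and 110 CPM at day 0 (3.62 ± 0.10, adjusted p = 9.23e-13). Lama1, a laminin chain, had 12.7, 9.16 and 7.88 CPM on plastic and 155, 157 and 155 CPM at day 0 (-3.998 ± 0.14, adjusted p = 3.57e-11), and Col18a1 fell by 4.49 ± 0.18 (adjusted p = 5.77e-11). The summed share was higher on plastic, at 0.569%, against 0.231% at day 0. In both lists the groups did not overlap for any of the called genes named, but the naming rule required this of genes picked by list.

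Matrix proteases and their inhibitors were mostly higher. Of 24 tested, 15 were higher, 13 by more than 2-fold, and 7 lower, 1 by more than 2-fold (2 without plastic replicate 1), with a median of 1.75. Mmp10, the matrix protease stromelysin-2, had 405, 354 and 498 CPM on plastic and 0 counts in every day 0 library, which makes it at least 6098-fold higher. Mmp3, a related stromelysin, had 418, 490 and 463.5 CPM on plastic and 2.34, 4.97 and 3.04 CPM at day 0 (7.01 ± 0.21, adjusted p = 3.77e-10), and the collagenase Mmp13 rose by 6.39 ± 0.23 (adjusted p = 3.11e-09). Timp1, an inhibitor of these proteases, had 653, 662 and 594 CPM on plastic and 7.47, 3.27 and 3.51 CPM at day 0 (7.07 ± 0.31, adjusted p = 1.18e-06). Serpinb2, an inhibitor of plasminogen activators, was at 0 at day 0 and at least 585-fold higher. Adamts1, a protease that cuts proteoglycans, fell by 1.28 ± 0.09 (adjusted p = 1.64e-08).

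Ligands and receptors of the transforming growth factor beta (TGF-beta) and platelet-derived growth factor families moved both ways. Of 24 tested, 9 were higher and 9 lower (7 and 6 by more than 2-fold), the median was -0.07, and the summed share overlapped between groups (exact p = 0.7). Summed as CPM, the list had 7859 to 10080 on plastic and 10250 to 10490 at day 0, without overlap. The comparison of sums thus depended on the scaling. Among ligands, Tgfb3 had 312, 366 and 380.5 CPM on plastic and 14.9, 16.9 and 17 CPM at day 0 (4.42 ± 0.12, adjusted p = 5.86e-13), Tgfb2 rose by 3.87 ± 0.19 (adjusted p = 3.85e-10), and Bmp5 fell by 2.48 ± 0.11 (adjusted p = 1.67e-10). The co-receptor Tgfbr3 fell to 125, 101 and 69.2 CPM on plastic, against 719, 703 and 683 CPM at day 0 (-2.85 ± 0.20, adjusted p = 3.2e-06). Ccn2, a matricellular target of TGF-beta, had 4588, 5649 and 4132 CPM on plastic and 376, 401 and 394 CPM at day 0 (3.60 ± 0.12, adjusted p = 9.67e-12).

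Genes used as readouts of YAP and TAZ, co-activators that respond to stiffness and cell shape, were likewise mixed in direction. Of 19 tested, 9 were higher and 8 lower (6 and 5 by more than 2-fold), with a median of 0.31, or 0.11 without plastic replicate 3. Their sum was higher on plastic, at 0.657%, 0.65% and 0.752% of counts, against 0.294%, 0.297% and 0.301% at day 0. Ankrd1, a muscle ankyrin protein often used as such a readout, had 622, 666 and 806 CPM on plastic and 0.0755, 0 and 0.662 CPM at day 0 (11.38 ± 0.47, adjusted p = 1.8e-06). F3, the tissue factor that starts clotting, had 1068, 1029 and 1181 CPM on plastic and 4.6, 6.01 and 7.28 CPM at day 0 (7.49 ± 0.16, adjusted p = 1.82e-13). Igfbp3, a carrier of insulin-like growth factors, went the other way, with 36.9, 32.4 and 42.3 CPM on plastic and 886, 869 and 927 CPM at day 0 (-4.61 ± 0.12, adjusted p = 4.38e-13). None of these 3 genes overlapped between groups, which the naming rule required.

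Cytokines and chemokines were mostly lower. Of 29 tested, 17 were lower, 12 by more than 2-fold, and 9 higher, 8 by more than 2-fold, with a median of -0.96. Cxcl12, the chemokine that holds blood stem cells, had 1616, 1846 and 1365 CPM on plastic and 9524, 9201 and 8920 CPM at day 0 (-2.54 ± 0.12, adjusted p = 1.8e-10). C3, the central complement component, had 0.752, 1.42 and 1.04 CPM on plastic and 651, 651.5 and 701 CPM at day 0 (-9.25 ± 0.16, adjusted p = 2.35e-14). C3 is also made by hepatocytes, and the transcripts of that cell type moved in the same direction. Their part in the result was not tested. The interferon-induced chemokine Cxcl10 fell by 7.55 ± 0.16 (adjusted p = 2.65e-13), and Cxcl9 was at 0 on plastic and at least 380-fold lower.

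The cytokines that rose included growth and differentiation factors of immune cells. Csf1, the macrophage growth factor, had 1844, 1675 and 2108 CPM on plastic and 225, 239.5 and 215 CPM at day 0 (3.03 ± 0.11, adjusted p = 1.36e-11). Cxcl14 had 225.5, 250 and 344 CPM on plastic and 1.06, 1.05 and 1.79 CPM at day 0 (7.69 ± 0.25, adjusted p = 1.25e-09), and Tnfsf18, a ligand of the tumour necrosis factor family, was at 0 at day 0 and at least 511-fold higher. Among 25 growth and neurotrophic factors 10 were higher and 10 lower, 7 each by more than 2-fold. Their median was 0.27 with all libraries and -0.21 without plastic replicate 1. Bdnf, a neurotrophin, had 305, 368 and 357 CPM on plastic and 1.21, 1.96 and 1.59 CPM at day 0 (7.72 ± 0.16, adjusted p = 8.85e-14), and Ereg, a ligand of the EGF receptor, rose by 5.45 ± 0.16 (adjusted p = 2.53e-11). Hgf, the hepatocyte growth factor of quiescent stellate cells, had 525, 397 and 234 CPM on plastic and 1720, 1754 and 1653 CPM at day 0 (-2.17 ± 0.30, adjusted p = 0.00137).

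Cell cycle genes rose together. Of 36 tested, 35 were higher, 32 by more than 2-fold, and none was lower, with a median of 3.34. Their sum was 0.191%, 0.175% and 0.179% of counts on plastic and 0.0311%, 0.0333% and 0.0354% at day 0. Rrm2, a subunit of the enzyme that makes DNA precursors, had 242, 214 and 249.5 CPM on plastic and 2.49, 2.09 and 3.31 CPM at day 0 (6.46 ± 0.15, adjusted p = 2.21e-13). Mki67, the proliferation marker, had 16.5, 22.1 and 13.6 CPM on plastic and 1.51, 2.03 and 1.65 CPM at day 0 (3.31 ± 0.27, adjusted p = 8.87e-08). Bub1, a kinase of the mitotic checkpoint, rose by 6.65 ± 0.41 (adjusted p = 4.08e-09), Cdc20, which triggers anaphase, by 3.67 ± 0.19 (adjusted p = 7.74e-10) and the spindle motor Kif11 by 2.71 ± 0.27 (adjusted p = 7.5e-07).

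Promoters of late cell cycle genes are known for a CHR element, TTTGAA, near CCAAT boxes, and both were searched on both strands of the same 250 bases. CCAAT was found in 23 of 30 cell cycle genes (76.7%), against 37.5% of all promoters in the table and 40.6% of genes tested. TTTGAA was found in 9 of 30 (30%), against 18.3% and 13.4%. In the contractile list CCAAT was found in 12 of 22 genes (54.5%) and TTTGAA in 2 of 22 (9.09%). The stretches below show both elements in capitals in the 3 genes, read along the strand of the gene, where ATTGG and TTCAAA are the same elements on the opposite strand. They lie at chr4:118437344-118437406 on the minus strand for Cdc20, chr19:37376327-37376378 on the plus strand for Kif11 and chr7:135716462-135716577 on the minus strand for Mki67 in GRCm38.p6.
Cdc20: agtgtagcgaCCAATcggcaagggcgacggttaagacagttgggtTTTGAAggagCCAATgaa
Kif11: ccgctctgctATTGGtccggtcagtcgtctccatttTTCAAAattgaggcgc
Mki67: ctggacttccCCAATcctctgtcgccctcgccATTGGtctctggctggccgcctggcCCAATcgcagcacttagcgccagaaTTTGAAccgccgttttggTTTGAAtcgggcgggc

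Genes of the p53 and senescence list were mostly higher at the same time, with 13 of 17 higher and 3 lower, each by more than 2-fold, and a median of 2.56. Cdkn1a, the p21 inhibitor of cyclin-dependent kinases, had 1109, 1165 and 1236 CPM on plastic and 56.2, 51.2 and 44.8 CPM at day 0 (4.51 ± 0.11, adjusted p = 4.44e-13). Eda2r, a death receptor induced by p53, had 145, 131 and 146 CPM on plastic and 1.51, 3.01 and 0.794 CPM at day 0 (6.28 ± 0.28, adjusted p = 1.07e-07). Cdkn1b, the p27 inhibitor, fell by 1.95 ± 0.18 (adjusted p = 3.78e-07).

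Immediate early genes, which rise within minutes of stimulation or of tissue handling, were lower on plastic in nearly every case. Of 22 tested, 21 were lower, 19 by more than 2-fold, with a median of -2.49. Their share was 0.427% on plastic and 2.63% at day 0. Fos, an AP-1 subunit, had 376, 305 and 154 CPM on plastic, 8182, 8005 and 7395 CPM at day 0 and 884, 731 and 860 CPM in Matrigel (-4.84 ± 0.40, adjusted p = 0.000198), so both cultures lay far below day 0. Fosb fell by 7.42 ± 0.51 (adjusted p = 0.000139). Heat shock genes were 4 higher and 8 lower of 14, with Hspa1a, an inducible chaperone, at 10.5, 6.17 and 8.49 CPM on plastic and 315, 313 and 305 CPM at day 0 (-5.25 ± 0.16, adjusted p = 1.7e-11) and the small heat shock protein Cryab higher by 2.32 ± 0.09 (adjusted p = 4.15e-11). Cell isolation moves with the day 0 label, and its part in these values cannot be told apart from culture.

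Interferon-induced genes fell without exception among those tested. All 19 were lower, 18 by more than 2-fold, with a median of -3.02. Ifit1, which binds viral RNA, had 3.49, 3.52 and 4.52 CPM on plastic, 235, 251 and 229.5 CPM at day 0 and 4.57, 8.96 and 12.6 CPM in Matrigel (-5.97 ± 0.12, adjusted p = 1.01e-13). Both cultures were low for Ifit1, with no overlap with day 0, which for plastic was a condition of naming. The antigen presentation genes B2m and H2-D1, among the 6 genes with the largest share of day 0 counts, fell by 2.73 ± 0.16 (adjusted p = 3.92e-08) and 3.44 ± 0.12 (adjusted p = 1.47e-11).

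Biosynthetic genes were higher. Of 18 genes of serine synthesis and the ATF4 amino acid response, 17 were higher, 15 by more than 2-fold, and 1 lower, with a median of 3.28. Asns, which makes asparagine, had 471, 430 and 460 CPM on plastic and 0, 0.784 and 0.331 CPM at day 0 (10.14 ± 0.34, adjusted p = 4.02e-08). Phgdh, the first enzyme of serine synthesis, had 238, 261 and 261 CPM on plastic and 1.66, 0.654 and 1.52 CPM at day 0 (7.62 ± 0.19, adjusted p = 1.09e-12). Shmt1, a cytosolic enzyme that interconverts serine and glycine, was the member that fell (-2.56 ± 0.17, adjusted p = 1.3e-08). Asns was among the 8 largest increases picked by the naming rule. With it were Mmp10, Ankrd1, Serpinb9b, the orphan receptor gene Gpr176 and the metalloreductase gene Steap1. The envelope protein gene Sprr1a (at least 4849-fold) and the heparan sulphate enzyme gene Hs6st2 (at least 1192-fold) completed the 8.

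Of 20 glycolysis and hypoxia genes 13 were higher and 4 lower (median 0.60). Hk2, which commits glucose to glycolysis, had 39.8, 46.5 and 43.1 CPM on plastic and 1.74, 2.29 and 2.58 CPM at day 0 (4.26 ± 0.19, adjusted p = 1.18e-10), while Ndrg1, a gene induced by hypoxia, fell by 2.89 ± 0.41 (adjusted p = 0.00152). Sterol synthesis genes were 12 higher and 4 lower of 18 (median 0.77), with Cyp51, which demethylates lanosterol, higher by 1.67 ± 0.11 (adjusted p = 1.01e-08). Respiratory chain genes encoded in the nucleus and in mitochondria moved apart. Of 20 nuclear ones 15 were higher and 2 lower (median 0.56), whereas of 13 mitochondrial ones 12 were lower and none higher (median -1.15). The complex I subunit gene mt-Nd2 had 233, 231.5 and 191 CPM on plastic and 944.5, 938 and 857 CPM at day 0 (-2.08 ± 0.10, adjusted p = 3.49e-10), and replicate 3 was the lowest library in both groups. Secretory pathway and unfolded protein response genes were 12 lower and 4 higher of 18 (median -0.51). By more than 2-fold 1 was lower (3 without plastic replicate 3) and 1 higher. The lower one was Dnajb9, which fell by 1.46 ± 0.09 (adjusted p = 3.93e-09). The higher one was Creb3l1, a membrane-bound factor that raises collagen secretion, which rose by 2.46 ± 0.18 (adjusted p = 3.47e-08).

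**Figure D5:**
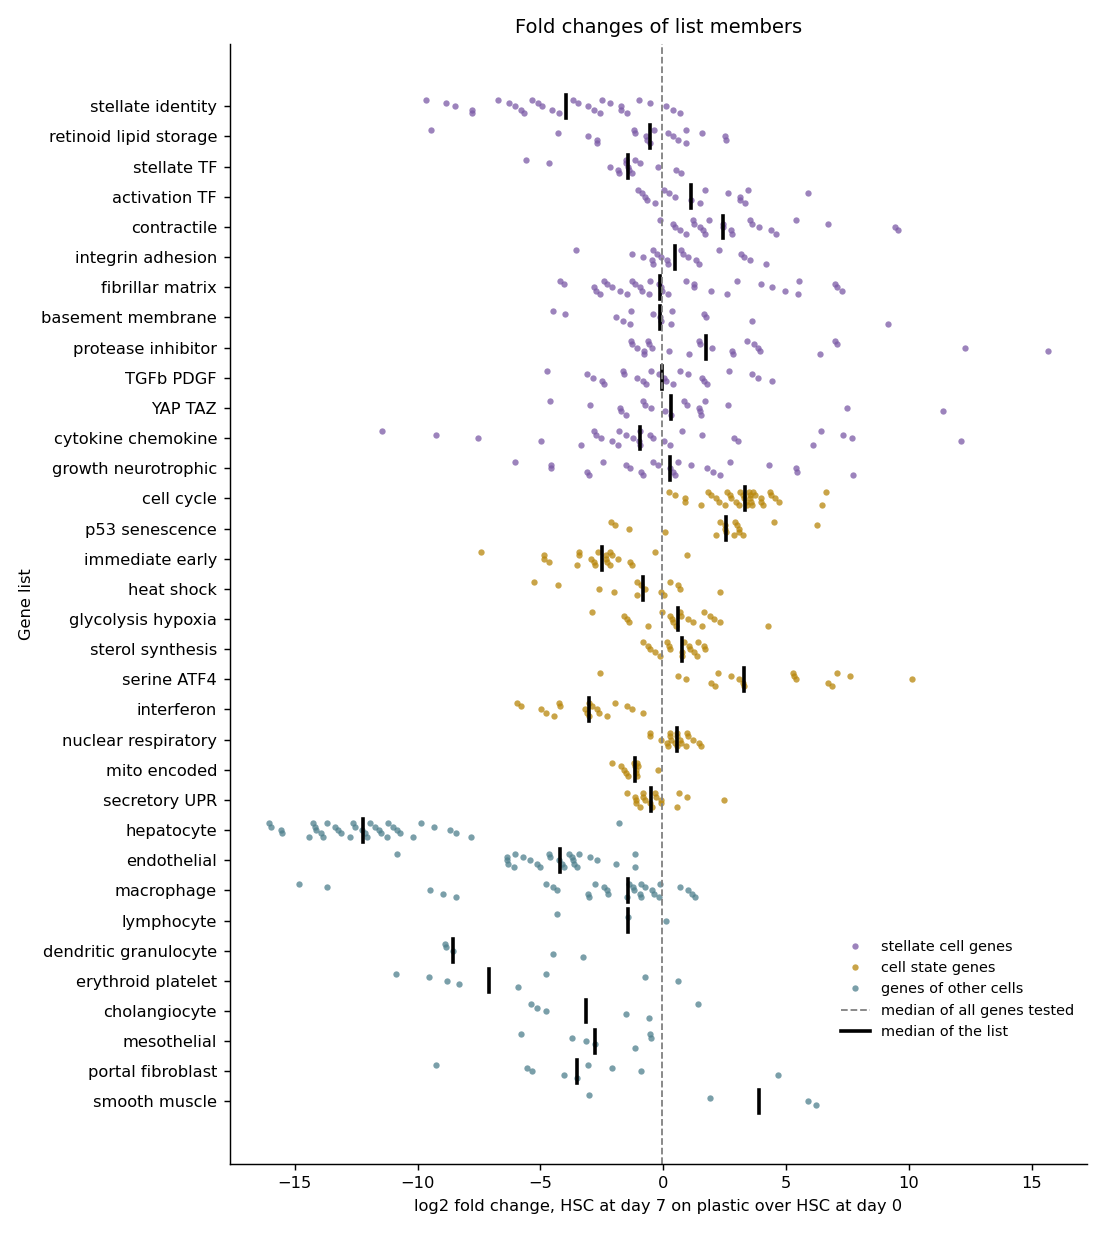
Fitted log2 fold change of plastic over day 0 for each tested member (points) of each gene list, with the list median as a black line and the median of all genes tested (-0.06) as a dashed line; for genes at 0 in a group the fitted value depends on the prior count and is no bound. Contractile (2.44), serine and ATF4 (3.28) and cell cycle (3.34) medians lie high, and hepatocyte (-12.22), endothelial (-4.20) and stellate identity (-3.96) medians low.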

How the data were processed

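RNA of 18 mouse libraries was isolated with an RNeasy kit and sequenced from Smart-seq2 cDNA tagmented with Nextera XT, per the labels' protocols. The authors deposited estimated counts for each gene and library; such values can be fractional, and 67.5% of them were whole within 0.001. Listed in the submitters' processing notes, with no role given, are the build GRCm39, DESeq2 1.36.0 and kallisto 0.46.1; the annotation release is not given in the sources used here. Whether replicates were separate animals is not stated in the labels, and the p-values therefore reflect only how far these samples differed, technical variation included.

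Estimated counts were rounded to whole numbers. The 6 libraries of both groups were fitted alone, so that the spread of other cultures did not enter, with edgeR 4.0.16 in R 4.3.3 (filterByExpr, TMM scaling, robust quasi-likelihood test), and the 2-fold rule used glmTreat. Benjamini-Hochberg adjustment, with a threshold of 0.05, ran over the 14984 genes tested of 35667. SE is the absolute log2 fold change over the square root of F, so it is not independent of the test. CPM used TMM factors over all 18 libraries, and summed shares are percent of a library's counts. Folds against a group at 0 take 3 counts summed over that group as a floor, which allows for counting error alone because no molecular identifiers were used. For 40 symbols on more than 1 row the row with the higher total kept the symbol.

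The comparison, the 34 lists (699 genes) and the naming rule were chosen with earlier results of these data known. For 1 symbol of the lists a current name was substituted (Tlcd4 for Tmem56). The rule named the 8 largest increases and decreases past the 2-fold rule with at least 50 CPM and no overlap. Clone names, pseudogenes, Mup family members and antigen receptor segments were left out. Under those limits came the 10 largest decreases seen in Matrigel, outside other-cell lists and with Matrigel means at most 1.5 times day 0. From each list up to 2 members per direction were taken, past the 2-fold rule with at least 10 CPM and no overlap. Set markers and the 6 genes with the largest count share per group were named whatever their result. A few other list members are named as well, chosen after their values were seen. Same-numbered libraries were not treated as pairs in the main fit, and whether they shared a preparation was not settled. Fits were run on simulated data in which few genes changed, evenly up and down. In the data 70.1% of genes were called, so the simulation did not test scaling under such a change. Alternatives were DESeq2 1.42.0, RLE scaling, TMM without genes of other cells, no filter and a stricter filter, a fit of all 12 HSC libraries, the replicate block and each library left out. Promoter sequences are those of RefSeq for GRCm38.p6, and coordinates are given for those stretches only, in that build, which is not the build of the counts.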

Additional observations from a re-analysis of the deposited data

How the results depend on the processing

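The counts of higher and lower genes kept within 1.5 times of 5112 and 5388 under every alternative run, from 3748 to 5709 higher and from 3794 to 5848 lower. The lowest of each came from the filter of at least 10 CPM in 3 libraries. By the 2-fold rule that filter, which tests 9653 genes only, gave 1286 higher and 1795 lower, against 2059 and 2783. Leaving out each library in turn gave 4839 to 4931 higher and 5057 to 5525 lower genes, and 1910 to 2037 higher and 2668 to 2934 lower by more than 2-fold. Across all genes the deviations of same-numbered libraries were not correlated above 0.1 (-0.009, -0.014 and 0.029), although replicate 3 was the lowest of both groups in the mitochondrially encoded genes. A fit with the replicate block gave 4924 higher and 5201 lower genes. DESeq2 gave 1585 higher and 2425 lower by more than 2-fold.

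The smooth muscle share reversed without its largest member, Mustn1, to a difference of 0.0101 percentage points, plastic minus day 0. The median of the growth factor list reversed to -0.947 under the stricter filter and to -0.214 without plastic replicate 1, and ranged up to 0.426 with other libraries left out. Vsig4, a Kupffer cell receptor, was called lower (adjusted p = 0.0262) but not with the replicate block (adjusted p = 0.0904), without plastic replicate 2 (0.0618) or without any 1 day 0 library (0.0741 to 0.078). Of 1788 single gene values 1772 stayed on their side of the threshold, and 1708 of 1768 list counts stayed within 1.5 times. Most of those single genes were named because they passed the 2-fold rule in the main fit, which favoured that result in advance. List medians were less stable, with 377 of 440 moving little, 61 moving further and 2 reversed; among those moved, the retinoid and lipid median was -0.123, the dendritic and granulocyte median -4.508 and the YAP and TAZ median 0.56 in the fit of all 12 HSC libraries. The cause of these moves was not tested. Few counts limit what can be said of the lymphocyte and cholangiocyte lists, of which 12 members each were under 1 CPM in every plastic library.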

Other observations

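The genes with the largest count shares changed as well. Actb, which encodes cytoskeletal actin, took 2.46% of counts on plastic and 0.662% at day 0. AC160336.1, a gene known by a clone name only, took 1.97% and 0.199%, plastic first. Sparc, a collagen-binding matrix protein, took 0.63% and 0.222%, in the same order. Apoe, the lipid-carrying apolipoprotein E, had 355, 246 and 56.5 CPM on plastic, 14960, 13830 and 13970 CPM at day 0 and 4324, 6261 and 8586 CPM in Matrigel. Its change on plastic was -6.04 ± 0.87 (adjusted p = 0.00341), with plastic replicate 3 the lowest library. Ftl1, the light chain of the iron store ferritin, rose by 0.54 ± 0.09 (adjusted p = 7.91e-05). Epcam, a bile duct surface protein, was at most 0.734 CPM on plastic and 0.654 CPM at day 0, and at 355, 144 and 38.6 CPM in the Matrigel libraries of HSC alone.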
